A study of Mus musculus with 8 samples.

Results

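The genes described here encode 9 subunits of Polycomb repressive complex 1 (PRC1): the ubiquitin ligase subunits *Ring1* and *Rnf2*, the PCGF subunits *Bmi1* and *Pcgf2*, the chromodomain subunits *Cbx2*, *Cbx6*, *Cbx7* and *Cbx8*, and the polyhomeotic subunit *Phc1*. They were selected by name with their differences between the 2 father groups already in view, so their values by father are a description and carry no test. A probe belonged to a gene when the accession on the array matched that gene in RefSeq. This gave 13 probes, out of 55681 distinct probes on the array and 20660 genes matched to RefSeq. *Cbx6* had 3 probes, *Bmi1* and *Pcgf2* had 2 each, and the other 6 genes had 1 each. All 13 probes passed the expression filter.

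The 8 samples were single whole mouse embryos of embryonic day 8.5 (E8.5), and the RNA of each was hybridised to its own single-colour Agilent array. The study asked whether the father's genotype at *Eed*, a core gene of Polycomb repressive complex 2 (PRC2), changes gene expression in his offspring. In 4 embryos the sire was homozygous for the hypomorphic allele Eedl7Rn5-1989SB (HOM father), and in 4 he was heterozygous (HET father). Mothers were wild type, the stock was C57bl6/129, and all 8 embryos were themselves heterozygous for the allele. Each group held 2 females and 2 males. The allele lowers PRC2 function without removing it and was present in the whole body of the sire, so it does not isolate the germ line. The methods describe fewer sires than embryos per group, so some embryos of a group share a sire. The sample labels hold a leading number with 3 distinct values in each group, shared by HOM father replicates 3 and 4 and by HET father replicates 1 and 2, but do not say what it stands for. Each father group lay on a slide of its own, so slide and father cannot be told apart.

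PRC1 is a chromatin complex that represses developmental genes such as the *Hox* genes. Its RING1 or RNF2 subunit attaches ubiquitin to histone H2A, and a PCGF protein such as BMI1 partners this ligase. In canonical PRC1 a CBX protein reads the trimethyl mark that PRC2 places on histone H3, and a PHC protein links complexes together through its SAM domain. *Cbx7* is best known as the main CBX gene of embryonic stem cells, whereas *Cbx2* and *Cbx8* take over as cells differentiate.

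Of the 13 probes, the *Cbx7* probe differed most between the father groups and was higher in all 4 HOM father embryos. *Cbx8* was higher to a smaller degree, *Cbx2* and *Rnf2* were slightly lower, and the groups overlapped for the remaining 9 probes. To show the sequence next to the start of the genes that were higher, the 250 bases before the RefSeq start are given for *Cbx7* and *Cbx8*, with those of *Cbx6*, which lies close to *Cbx7* on the same chromosome and whose groups overlapped. Sequences are from RefSeq on build GRCm38.p6, read 5′ to 3′ along the gene, which is on the minus strand in each case. Capitals mark each CpG dinucleotide. *Cbx7* is at chr15:79932647-79932896, *Cbx8* at chr11:119040914-119041163 and *Cbx6* at chr15:79834334-79834583.
Cbx7: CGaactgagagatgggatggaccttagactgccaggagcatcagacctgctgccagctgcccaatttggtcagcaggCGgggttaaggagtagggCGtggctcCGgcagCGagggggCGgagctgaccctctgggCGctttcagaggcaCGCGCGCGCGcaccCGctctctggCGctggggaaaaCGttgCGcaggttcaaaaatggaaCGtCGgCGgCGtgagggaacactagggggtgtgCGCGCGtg
Cbx8: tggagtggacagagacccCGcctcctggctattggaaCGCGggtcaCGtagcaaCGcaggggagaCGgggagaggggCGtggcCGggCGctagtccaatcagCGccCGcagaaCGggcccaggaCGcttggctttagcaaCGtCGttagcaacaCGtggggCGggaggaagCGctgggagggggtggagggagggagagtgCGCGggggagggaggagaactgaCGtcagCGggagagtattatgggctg
Cbx6: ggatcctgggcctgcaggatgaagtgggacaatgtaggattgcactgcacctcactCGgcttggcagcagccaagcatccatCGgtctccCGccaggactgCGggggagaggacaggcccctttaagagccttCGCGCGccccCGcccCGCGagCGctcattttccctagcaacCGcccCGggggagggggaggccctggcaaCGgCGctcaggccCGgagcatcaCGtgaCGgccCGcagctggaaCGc

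The *Cbx7* sequence held 23 CpG, the *Cbx8* sequence 22 and the *Cbx6* sequence 20. Across 32851 promoters of this length the median was 6, and 13.3% held as many as *Cbx7*. An entry was found for 8 of the 9 genes, without *Cbx2*. *Ring1* had the most CpG of the 8 (30), *Bmi1* had 21, *Rnf2* had 20, *Phc1* had 8 and *Pcgf2* had 5. The motif GGGCGG, searched on both strands and itself holding 1 of the CpG counted above, was present in 7 of the 8 and in 32.7% of all promoters. CCAAT, on either strand, was present in *Cbx7* and *Cbx8* alone among the 8 and in 33.8% of all promoters. TATAAA was in none of the 8 and in 12.4% of all promoters. These are matches of letters in the window and do not show that a factor binds.

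Signals are given as normalised log2 signals, on which 0 is the 75th percentile of that array. On each array 51.9% to 60.8% of spots were well above background, and replicate 1 had the highest share in both groups. No spot was saturated. In whole embryos fewer cells of a type and less RNA per cell cannot be told apart. All 12 markers of heart, neural tissue, mesoderm and primitive red cells passed the expression filter. The level of a marker list was summed on a linear scale, in multiples of the 75th percentile of the array. The sums of the groups overlapped for heart (21.4 to 25 in HOM father embryos and 23.7 to 26.2 in HET father embryos), neural tissue (3.35 to 3.93 and 3.53 to 3.96) and mesoderm (8.52 to 9.56 and 8.47 to 11.2). However, *Mesp2*, a mesoderm marker, was at -1.25 by father with overlapping groups, and was well above background in only 2 of 4 HOM father embryos. In addition, 1 probe each of *Tbx6* and *Myl7* was lower without overlap. *Sox1* probe A_55_P2012051 was higher without overlap (0.42), whereas its other probe was at -0.16 with overlapping groups. For red cells the sums were 426 to 536 and 553 to 613, without overlap. Taken singly, *Hba-x* was lower without overlap (-0.33), whereas the groups overlapped for *Hbb-bh1* (-0.22) and *Gata1* (-0.25). Of tissue around the embryo, the yolk sac sums overlapped (206 to 289 and 252 to 276), as did those of decidua (1.23 to 21.9 and 0.0804 to 3.7), where 1 of 2 genes was tested (*Prl8a2*) and *Prl3c1* was not above background on any array. The trophoblast sums did not overlap, at 14.3 to 22.8 and 23.3 to 45.1, with 2 of 3 genes tested and *Tpbpa* not above background on any array. *Gcm1* carried that sum and was lower in HOM father embryos on its brightest probe (-1.07), whereas *Prl3d1* had differences of 1.88 and 1.07 on its 2 probes, with overlapping groups. The part of these tissues in the results below was not tested.

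*Cbx7* encodes a chromodomain subunit and was represented by probe A_55_P1980401. In HOM father embryos its normalised log2 signal was -2.68, -3.98, -4.16 and -3.85 (replicates 1 to 4), and in HET father embryos it was -5.89, -6.90, -6.90 and -6.86. Each HOM father embryo was above each HET father embryo, with a gap of 1.73 between the nearest embryos of the groups, and replicate 1 was the highest of its group in both. The mean was -3.67 ± 0.67 (SD, n = 4) in HOM father embryos and -6.64 ± 0.50 in HET father embryos, a difference of 2.97.

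The size of this difference is uncertain, because the HET father values were not well above background. The probe was well above background in 4 of 4 HOM father embryos and in 0 of 4 HET father embryos. Before normalisation its processed signal was 251.6, 99.4, 91.3 and 94.1 in the first group and 24.1, 12.1, 11.1 and 11.8 in the second, so the HET father values lie near the floor of the scanner software. The HET father mean was therefore replaced by the mean of the lowest signal that was well above background on each of its arrays, -5.15. That limit comes from the dimmest such probe of any gene, not from this probe. With it *Cbx7* was 2.78-fold higher in HOM father embryos (1.48 on the log2 scale). With the normexp background correction, which compresses signals near background, the measured log2 difference was 1.11 in place of 2.97. As 1.11 is below 1.48, no lower limit that holds under both is given. Leaving out any 1 embryo gave 2.64 to 3.22. The plot of *Cbx7* against the background limit of each array shows the HOM father embryos above that limit and the HET father embryos below it.

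**Figure D1:**
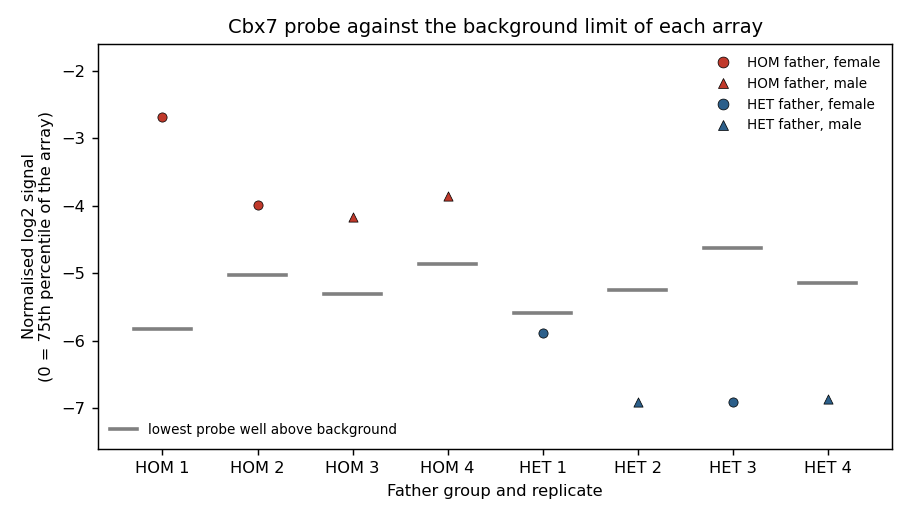
Normalised log2 signal of the *Cbx7* probe (y axis, 0 = 75th percentile of the array) in each of the 8 embryos (x axis, father group and replicate), with a grey line at the lowest signal of any probe that was well above background on that array. The 4 HOM father embryos, at -4.16 to -2.68, are above their lines, and the 4 HET father embryos, at -6.90 to -5.89, are below theirs.

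*Cbx8*, a chromodomain subunit whose gene lies beside *Cbx2*, was represented by probe A_52_P229997. Its normalised log2 signal was -1.17, -1.04, -1.11 and -1.15 in HOM father embryos and -1.40, -1.50, -1.61 and -1.77 in HET father embryos. The groups did not overlap, with a gap of 0.23, and the HOM father embryos were the closer to each other. The means were -1.12 ± 0.06 and -1.57 ± 0.16 (SD, n = 4), so *Cbx8* was 1.37-fold higher in HOM father embryos (0.45 on the log2 scale). The probe was well above background on every array, as were the other probes of the 9 genes apart from *Cbx7*. With arrays scaled on their median the *Cbx8* difference was 0.26.

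*Cbx2*, the chromodomain subunit needed for normal skeletal patterning and male sex determination, was lower in HOM father embryos. Probe A_52_P13730 gave 2.39, 2.33, 2.41 and 2.30 in HOM father embryos and 2.48, 2.56, 2.46 and 2.47 in HET father embryos. The groups were separated by only 0.05, and the difference of the means was -0.13 on the log2 scale.

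*Cbx6*, a chromodomain subunit, had 3 probes. Probe A_51_P221428 differed by 0.01 between the groups, probe A_51_P391764 by 0.20 and probe A_55_P2111741 by 0.22, each with overlapping groups. The second of these read 1.62, 1.42, 1.40 and 1.46 in HOM father embryos and 1.45, 1.26, 1.20 and 1.19 in HET father embryos, where HET father replicate 1 was the embryo that overlapped. The log2 signal of A_51_P221428 minus that of A_51_P391764 on the same array was -1.66 to -1.40 in HOM father embryos and -1.38 to -1.25 in HET father embryos, without overlap. The nearest values, -1.40 and -1.38, were close together. The share of all probe pairs without overlap is not given, so nothing is read from this pair. The groups overlapped for A_51_P221428 minus A_55_P2111741 (3.96 to 4.28 and 4.17 to 4.51). For A_51_P391764 minus A_55_P2111741 the means were 5.62 and 5.64. These 2 probes were alike by father in this processing and with median scaling (0.01 and 0.03), but not under every processing. With quantile normalisation they differed by 0.23 and 0.02 between the groups, and with normexp by 0.21 and 0.03. The within-array differences of the paired probes of *Bmi1* and of *Pcgf2* overlapped between the groups.

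Of the ligase subunits, *Rnf2*, which carries most of the H2A ubiquitin ligase activity in embryonic cells and is required for gastrulation, was lower in HOM father embryos. Probe A_51_P382253 gave 2.69, 2.61, 2.72 and 2.69 in HOM father embryos and 2.78, 2.80, 2.81 and 2.75 in HET father embryos. The nearest embryos of the groups were 0.02 apart, and the difference was -0.10 (1.07-fold), which turned to 0.02 with the normexp correction. *Ring1*, its paralogue, read -0.28, -0.29, -0.38 and -0.39 against -0.39, -0.26, -0.09 and -0.25 (probe A_51_P455266), with overlapping groups and a difference of -0.09.

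Differences by father were small for the PCGF subunits. *Bmi1*, known for its part in stem cell self-renewal, differed by 0.00 on probe A_52_P39157 and by 0.07 on probe A_55_P2170335. *Pcgf2*, its close relative, differed by -0.01 on probe A_51_P317740 and by 0.09 on probe A_55_P1968153. The groups overlapped on all 4 probes. *Phc1*, which encodes a SAM domain subunit, read 0.63, 0.80, 0.91 and 0.88 in HOM father embryos and 0.84, 1.01, 1.00 and 1.01 in HET father embryos (probe A_51_P433430), and HET father replicate 1 fell among the HOM father embryos. The *Phc1* difference was -0.16.

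**Figure D2:**
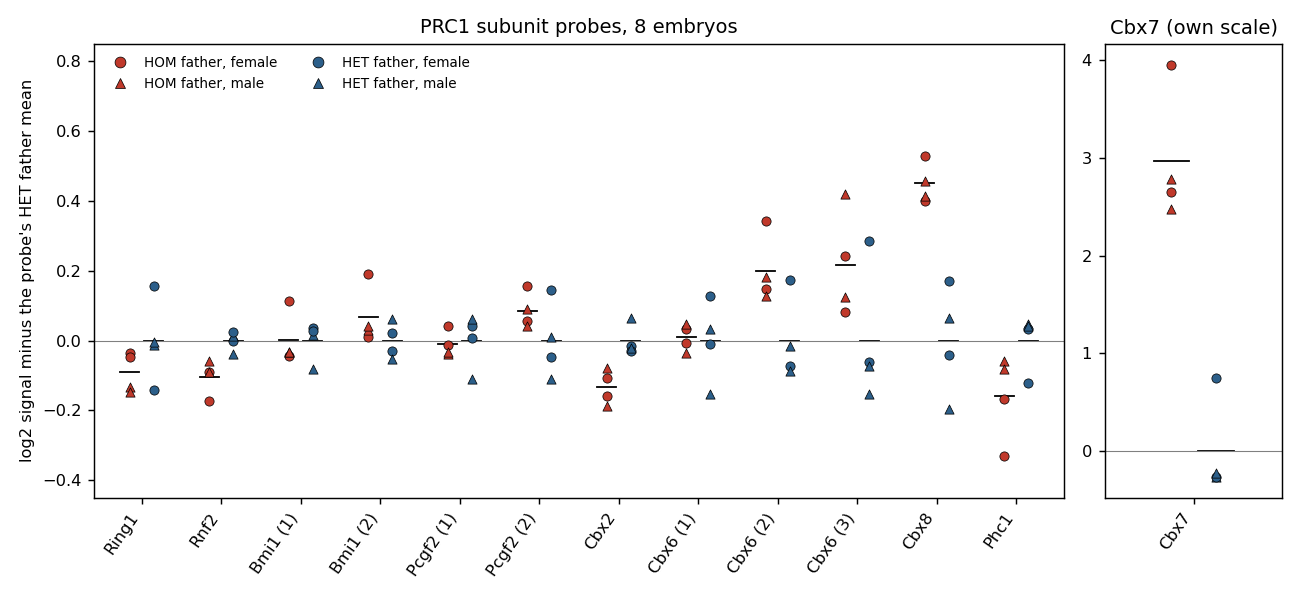
Normalised log2 signal of each of the 13 probes minus the mean of the HET father embryos for the same probe (y axis, log2) by probe (x axis, numbered within a gene in the order of the probe names), with a point per embryo and a line at each group mean. *Cbx8* differed by 0.45 without overlap, *Cbx2* and *Rnf2* were lower by small gaps, and *Cbx7*, on its own scale, differed by 2.97.

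Across the 13 probes, 8 had a positive and 5 a negative difference (HOM father minus HET father), and the median was 0.01, compared with -0.02 over all 29718 tested probes. Every embryo of HOM fathers was above every embryo of HET fathers for 2 of the 13 probes, as for 14.1% of all tested probes, and below for 2, as for 13.0%. At an adjusted p below 0.01 and a 2-fold change, *Cbx7* alone among the 13 was higher and none was lower, where 1.24% and 0.0269% of all tested probes were. With the limit at an adjusted p below 0.05 alone, the higher probes were those of *Cbx7* and *Cbx8*, and none of the 13 was lower, where 12.3% of all tested probes were higher and 8.69% lower. Because the genes were chosen by this comparison, nothing is read from these counts.

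Several small differences changed sign with the processing. With arrays scaled on their median, the median difference of all tested probes moved by -0.19, from -0.02 to -0.21, and 4 of the 13 probes were then above 0 and 9 below. With the looser limit (adjusted p below 0.05), 1 of the 13 (*Cbx7*) was higher and 3 (*Cbx2*, *Phc1* and *Rnf2*) were lower. The share of all tested probes at that limit and scaling is not given, so nothing is read from these counts. Relative to the median of all tested probes *Cbx7* was higher by 2.99, *Cbx8* by 0.47 and *Cbx2* and *Rnf2* lower, at -0.11 and -0.08. *Cbx7* and *Cbx8* were higher under each of the 4 ways of processing in the plot of father differences, and *Cbx2*, *Phc1*, *Ring1* and the other *Cbx6* probes also kept their sign, whereas *Rnf2*, both *Bmi1* probes, both *Pcgf2* probes and *Cbx6* probe A_51_P221428 took both signs.

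**Figure D3:**
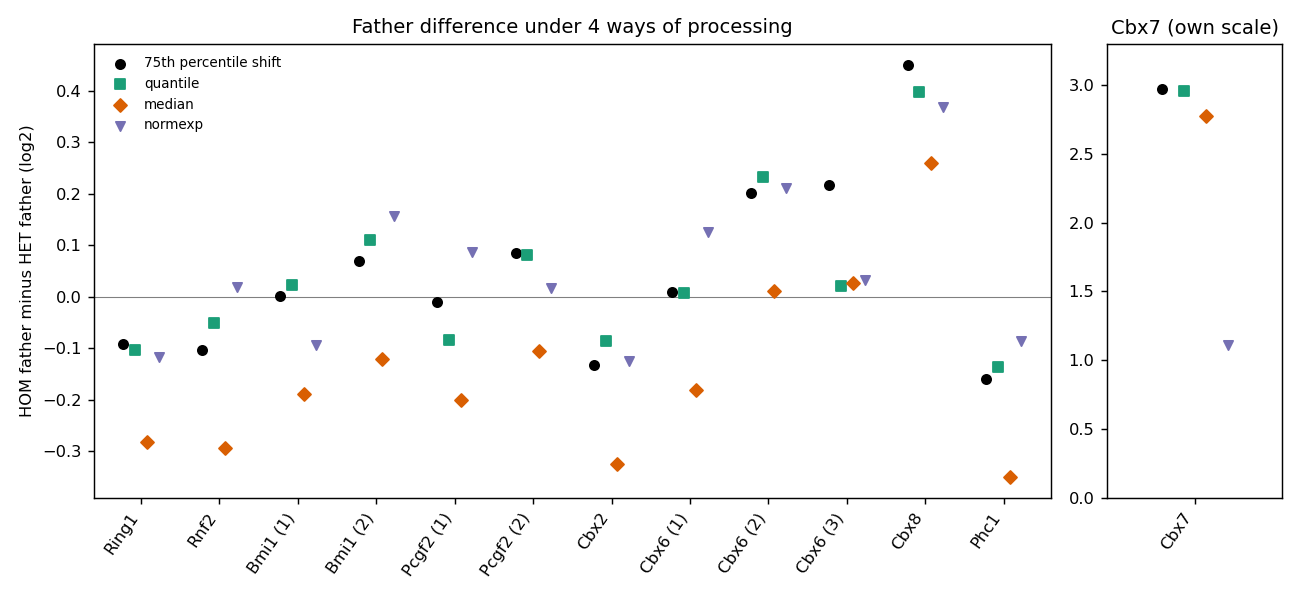
Difference between the means of the HOM father and HET father embryos (y axis, log2) for each of the 13 probes (x axis) with the 75th percentile shift, quantile normalisation, median scaling and the normexp background correction. Median scaling moved the 12 probes in the left panel down, and *Cbx7*, on its own scale, went from 2.97 to 1.11 with normexp.

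*Cbx7* and *Cbx8* each lie near other PRC1 genes, and the genes around them differed less by father. Neighbours were taken by their position in the RefSeq gene order, not by their values. On chromosome 15, 7 of the 8 genes within 4 places of *Cbx7* had tested probes, and their 9 probes differed by -0.30 to 0.40. The adjacent genes were *Apobec3*, a cytidine deaminase that restricts retroviruses, at 0.40, and *Pdgfb*, a growth factor, at -0.25, with *Cbx6* a further gene away from *Apobec3*. On chromosome 11, *Cbx8* lies beside *Cbx2*, which was at -0.13, and 8 probes of 5 genes within 4 places of it, *Cbx2* included, differed by -0.25 to 0.29.

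**Figure D4:**
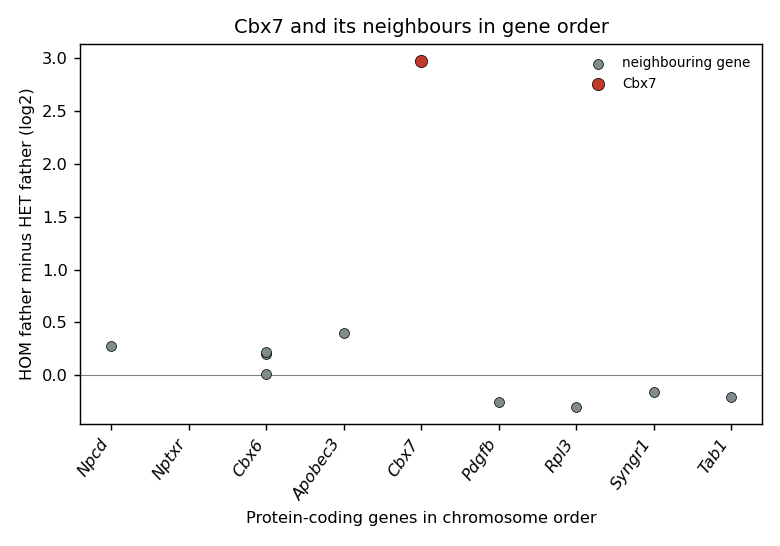
Difference between the HOM father and HET father means (y axis, log2) for the tested probes of *Cbx7* and of the genes within 4 places on either side, in chromosome order (x axis). The neighbours range from -0.30 to 0.40 against 2.97 for *Cbx7*. Genes without a point had no tested probe.

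Embryo sex was not used to choose the genes, so it was tested, with father as a covariate. No PRC1 subunit passed the test. With limma and Benjamini-Hochberg adjustment over 29718 probes, 0 of the 13 were called at an adjusted p below 0.01 and 2-fold, where 0.0606% of all probes were, and 0 of the 13 had an unadjusted p below 0.05, where 5.22% of all probes did. The smallest unadjusted p was for *Phc1*, at -0.13 in females relative to males (unadjusted p = 0.068, adjusted p = 0.914, limma). Apart from *Cbx7*, the 12 differences were between -0.13 and 0.10, and their 95% intervals lay within -0.28 and 0.35, so a sex difference of 2-fold was outside the interval for each of them.

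*Cbx7* is counted among the 13, but 4 of its 8 values were below background, so the size of a sex difference is not given for it. In the HOM father embryos, where it was measured, the females at -2.68 and -3.98 and the males at -4.16 and -3.85 overlapped.

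The father difference was also compared between females and males, with 2 embryos in each combination. No interaction passed the test for any subunit. With limma, 0 of the 13 probes were called, as for 0% of all tested probes, and 0 of the 13 had an unadjusted p below 0.05, where 4.52% of all probes did. No value is given for *Cbx7*, whose HET father signals were below background. For the other 12 probes the father difference in females minus that in males was between -0.34 and 0.08, with intervals within -0.88 and 0.46.

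**Figure D5:**
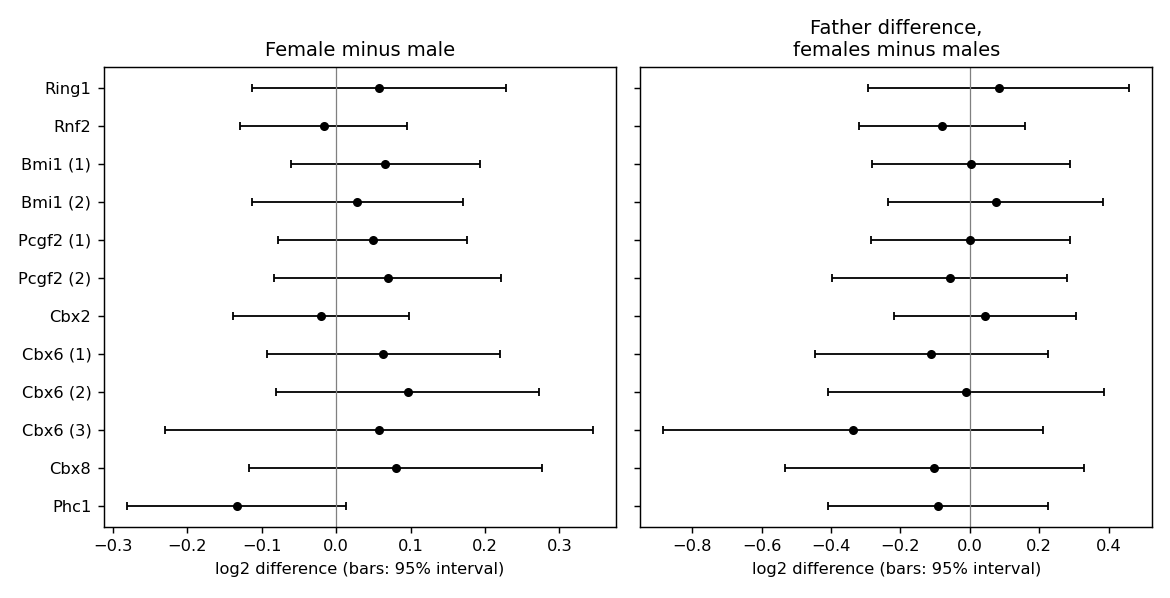
Difference between female and male embryos (left) and father difference in females minus that in males (right), each as a log2 difference with its 95% interval from limma (x axes, scaled separately) for the 12 probes other than *Cbx7* (y axis). Every interval crosses 0, and the sex intervals lie within -0.28 and 0.35.

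The other subunits of canonical and variant PRC1 formed a list of 22 genes, of which 18 genes with 24 probes were tested by father. None was called at 2-fold. At an adjusted p below 0.05, 6 of the 24 probes were lower in HOM father embryos and none was higher, where 8.69% and 12.3% of all tested probes were. The list leaves out the 9 subunits above, which were chosen with this comparison in view. Among those are *Cbx7* and *Cbx8*, which were higher at this limit, so nothing is read from these counts. The median difference was -0.06, compared with -0.02 over all tested probes. The count of lower probes fell to between 2 and 4 when any 1 embryo was left out, and 1 probe was then higher without HET father replicate 4. With median scaling, which moved every probe by -0.19, the count of lower probes rose to 11. The share of all tested probes at that setting is not given, so nothing is read from the 11. With the leading label number as a random block the count was 4, without *Phc2* and *Pcgf1*.

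Of these probes the largest differences were for *Bcorl1* and *Fbrsl1*, which encode accessory subunits of variant PRC1, and for *Scmh1*, a Polycomb protein that associates with PHC proteins. *Bcorl1* fell by 0.40 on probe A_51_P376057 (adjusted p = 0.0053, limma), whereas its other probe differed by 0.01. *Fbrsl1* fell by 0.37 on probe A_55_P2095732 (adjusted p = 0.00212, limma), and its other probe was at -0.16 (adjusted p = 0.111, limma). *Scmh1* fell by 0.27 (adjusted p = 0.0183, limma), which became adjusted p = 0.0506 without HET father replicate 3 and 0.0865 with no filter on dim probes. The other 3, named after their values were seen, were probes of *Bcor* at -0.22, *Phc2* at -0.18 and *Pcgf1* at -0.17. A further *Bcor* probe, A_51_P183630, was at -0.04 with overlapping groups.

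Removal of ubiquitin from H2A opposes PRC1. Of 10 tested probes for 7 H2A deubiquitinases and their partners, none was called at 2-fold and 1 was lower at an adjusted p below 0.05, near the 8.69% of all tested probes. With median scaling, which moved every probe by -0.19, 7 of the 10 were lower. The share of all tested probes at that setting is not given, so nothing is read from this count. The median was -0.06, compared with -0.02 over all tested probes. *Bap1*, the catalytic subunit of a nuclear H2A deubiquitinase, fell by 0.25 (adjusted p = 0.00943, limma), and this became adjusted p = 0.066 with no filter on dim probes and 0.0654 without replicate 1 of both groups. *Asxl3*, a BAP1 partner, and *Usp16*, another H2A deubiquitinase, were next in size, at -0.12 and -0.11.

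The probes whose profile over the 8 embryos was most like that of *Cbx7* belonged to *Snrpc*, which encodes a component of the U1 small nuclear ribonucleoprotein, to *Cox17*, a copper chaperone of cytochrome oxidase, and to 1700071K01Rik. Likeness was measured as the root mean square distance between log2 profiles centred on their mean, over 19031 probes matched to RefSeq, for which the median distance was 1.60. The distance was 0.43 for *Snrpc* (probe A_55_P2153633), 0.47 for *Cox17* (probe A_55_P2036967) and 0.52 for 1700071K01Rik (probe A_55_P1976077). The *Snrpc* and *Cox17* probes were, like *Cbx7*, well above background in all 4 HOM father embryos and in none of HET fathers. The other *Snrpc* probe, A_55_P1954001, was well above background on the 8 arrays and differed by -0.17, against 2.93 for the first, and the other *Cox17* probe, A_55_P2095973, did not rise well above background on any array. No other probe was matched to *Cbx7* by its RefSeq accession, so its value was not compared with a further probe. Probes without a RefSeq match were not searched for *Cbx7*.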

How the data were processed

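The authors scanned single-colour Cy3 arrays and made spot intensities with Agilent Feature Extraction version 11.0.1.1, which subtracts background. The deposited intensity values were on a linear scale, not normalised between arrays. The deposited flags for spots well above background, saturated or outlying are other values, of 0 or 1. The deposited table of the series, an intensity table of the same arrays, was used as an alternative.

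From 59305 non-control spots per array, flagged outlier spots were left out, the processed intensity was taken as log2, each array's 75th percentile was subtracted, and spots of a probe were averaged. A probe was tested where it was both flagged well above background and not below the array's 20th percentile, on at least 4 of 8 arrays (29718 of 55681). Probe accessions were matched without versions to RefSeq (27235 probes). Tests were two-sided, with limma 3.58.1 (lmFit and eBayes) in R 4.3.3 and Benjamini-Hochberg adjustment over all tested probes, after the procedure was tested on simulated data. Probes were called at an adjusted p below 0.01 and 2-fold, after the study's methods. As some embryos may share a sire, p-values measure the spread between these embryos. Arrays number 8, which limits the precision.

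The subunits, gene lists and alternatives were chosen with earlier results of these data known. All probes of the 9 subunits were named, with called probes or else the 3 largest differences in each other list, and the 3 profiles nearest to *Cbx7*. The normexp correction used median signals, because the mean signal column was not in the tables used here. The alternative without replicate 1 of both groups was also added after the data were seen. The result of 1 further gene is not reported here.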

Additional observations from a re-analysis of the deposited data

Results flagged for a closer look

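For each of the 13 probes and each father group, the embryo farthest from the others was compared with Dixon's 95% limit for 4 values. Of 26 such groups 6 passed it, where chance alone flags about 1 in 20, or 1.3 of 26. In HET father embryos these were *Cbx7* in replicate 1, high at -5.89 and below background there, *Phc1* in replicate 1, low at 0.84, *Cbx2* in replicate 2, high at 2.56, and *Bmi1* probe A_52_P39157 in replicate 4, low at 0.53. In HOM father embryos replicate 1 was high for both *Bmi1* probes, at 0.73 on A_52_P39157 and at 2.24 on A_55_P2170335. Replicate 1 of each group, with 4 of the 6 values, also had the highest share of spots well above background in its group, at 60.8% and 58.5%.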

How the results depend on the processing

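Over all tested probes, 376 were called by father, and 300 to 418 when 1 embryo was left out. The count was 145 with normexp, 228 when probes had to be well above background on all arrays, and 6243 at an adjusted p below 0.05 without a fold limit. Of the calls 97.9% were higher in HOM father embryos, and 84.7% with median scaling. *Cbx7*, the subunit called, was called under each alternative that tested it, but was not tested (0 calls) when all arrays had to be above background. It was chosen with this comparison in view and passed the filter through the HOM father embryos alone, so these repeated calls add no support. At an adjusted p below 0.05 the count was 2 for the subunits, 6 for the other PRC1 probes and 1 for the deubiquitinases. By sex 18 probes were called, 12 to 17 with 1 embryo left out, 5 above background on all arrays and 36 at an adjusted p below 0.05. The interaction had 0 calls, 3 with normexp, 11 with an intensity trend and robust variance, and 19 at an adjusted p below 0.05. Causes of these changes were not tested.

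The sex differences of the 13 probes crossed the threshold in 0 of 233 refits and changed sign in 15. With median scaling *Rnf2* was at 0.071 and *Cbx2* at 0.068, and *Cbx2* was at 0.0037 with normexp. Without replicate 1 of both groups *Cbx7*, below background in HET father embryos, was at -0.00051, *Cbx6* at -0.014 (A_51_P391764) and -0.070 (A_55_P2111741), and *Bmi1* A_55_P2170335 at -0.0037. With 1 embryo left out the range was -0.035 to 0.0077 for *Rnf2* A_51_P382253, -0.047 to 0.00068 for *Cbx2* A_52_P13730, -0.046 to 0.15 for *Cbx6* A_55_P2111741 and -0.015 to 0.058 for *Bmi1* A_55_P2170335.

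The study's sires were littermate pairs of HOM and HET brothers, but the labels do not say which embryos each pair sired. Correlations of same-numbered embryos' deviations were 0.189, -0.086, -0.132 and 0.146. HOM father replicates 1 and 4 correlated best with the HET father embryo of their own number, and replicates 2 and 3 did not. These values cannot decide whether the replicate numbers pair the embryos. With the replicate number as a block 232 probes were called by father and 2 by sex, 2 of the other PRC1 probes were lower at an adjusted p below 0.05 (also 2 with no filter on dim probes), *Scmh1* had an adjusted p of 0.0704 and *Bap1* of 0.0507, and the sex differences were -0.029 and -0.018 for *Cbx6* A_51_P221428 and A_51_P391764, -0.12 for *Cbx6* A_55_P2111741 and -0.018 for *Cbx8*. Probes near background, such as *Cbx7* in HET father embryos, leave the size of a difference uncertain.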
